A study of Mus musculus with 10 samples.

Results

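The 788 regions described here were distal chromatin sites with a KLF1 peak and no KLF3 peak in mouse erythroid lines. They were chosen by the authors' peak calls and annotation: a KLF1 peak qualified when it was annotated as distal or intergenic and shared no base with any listed KLF3 peak. They made up 20.7% of the 3800 KLF1 peaks, and 788 of the 999 distal and intergenic ones. Of the sites, 697 were annotated as distal and 91 as intergenic. They lay in 771 distinct intervals, because some intervals were listed more than once with different summits.

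KLF1 was profiled in K1-ER cells, KLF1 null erythroblasts (clones A and C) carrying KLF1 fused to an estrogen receptor domain (KLF1-ER). KLF3 was profiled in J2E-KLF3-ER, clone C of the J2E erythroid line carrying a KLF3-ER fusion, and its list holds 4579 peaks. Both lines received 200 nM 4-hydroxytamoxifen, which activates such fusions, for 3 hours, and 3 replicates were pooled into each immunoprecipitate library and its input. Newly made RNA, labelled for 30 minutes with 500 µM 4-thiouridine (4sU), was sequenced in 3 libraries of J2E-KLF3-ER (1 each of clones A, C and E, all with tamoxifen) and in 3 of parental J2E, 2 with tamoxifen and the third with ethanol. The fusion in J2E-KLF3-ER comes on top of the line's own KLF1 and KLF3. Absence of a KLF3 peak therefore refers to another cell line than the KLF1 peak does, and factor, line and library cannot be told apart.

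KLF1 is a zinc finger activator of erythroid genes that binds CACCC-type elements in promoters and enhancers. KLF3 recognises closely related elements, recruits corepressors of the CtBP family, and is itself encoded by a gene that KLF1 activates. Distal elements in erythroid cells are often bound by GATA1 and TAL1 together with KLF1 and can act over long distances. The nearest gene of such an element is a label of position, and it need not be the gene that the element acts on.

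The RNA labels were checked first. The Klf3 row, which cannot separate transgene from resident transcripts, was at 180 FPKM in J2E-KLF3-ER and 7.46 FPKM in J2E in the authors' deposited table (FPKM counts fragments per length of transcript and per size of the library). Klf1 was at 55.6 FPKM in J2E-KLF3-ER and 122 FPKM in J2E, or -1.14 in log2 units of the authors' deposited table, so the transcript of the resident activator was lower in the same comparison that is used below. Its part in the changes below was not tested. The erythroid regulators Gata1 and Tal1 were present in both groups, at 25.2 and 46.9 FPKM in J2E-KLF3-ER and 30.6 and 50.6 FPKM in J2E in the authors' deposited table. No member of the lists of 7 mast cell, 9 lymphoid and 6 progenitor markers had enough signal to be tested by the authors. Of 11 myeloid markers 3 were tested, and of 8 megakaryocyte markers 3 were tested. Expression in K1-ER cells was not analysed here beyond the up and down gene lists in the KLF1 peak table.

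A few sequences show what stands near these sites. The interval sequences themselves were not used here, as no genome of the build of the peak files (mm9) was at hand. Among the 666 assigned genes were 13 microRNA genes with 16 sites, and 11 of the 13 were found in the RefSeq table (GRCm38.p6). The mature forms shown are those of Mir144, an erythroid microRNA gene with its neighbour Mir451a, of Mir130a and of Mir29b-1, families known across vertebrates. They were chosen after the values were seen. The capitals mark the seed, bases 2 to 8, and no seed is shared between them.
mmu-miR-144-3p: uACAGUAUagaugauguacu
mmu-miR-144-5p: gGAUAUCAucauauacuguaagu
mmu-miR-451a: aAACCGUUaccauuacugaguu
mmu-miR-130a-3p: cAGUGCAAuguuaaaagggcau
mmu-miR-29b-3p: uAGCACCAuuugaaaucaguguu

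The Mir144 site lay 6936 bp upstream of the start site, at chr11:77879470-77879689 on mm9, with a KLF1 enrichment of 8.28. A second KLF1 peak stood closer, 3139 bp upstream at chr11:77883165-77883595, with an enrichment of 21.7, and that one overlapped a KLF3 peak. So the weaker and more distant of the 2 KLF1 peaks of the erythroid miR-144/451 locus was the one without KLF3. The Mir130a site, with an enrichment of 9.27, lay 374 bp downstream of the start site and was the closest of all 788 sites to its assigned start. The Mir29b-1 site lay 49518 bp upstream, with an enrichment of 8.35.

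Promoter sequence is shown for 4 genes assigned to these sites, to set genes whose only listed peak was a distal KLF1 site beside genes that also had a KLF1 promoter peak. Each line gives the 120 bases upstream of the start on the gene's strand, from RefSeq on GRCm38.p6. Capitals mark matches, on either strand and merged where they overlap, to the broad motif CCNCNCCC. The narrow motif CCACNCCC is contained in the broad one. The set was chosen after the values were seen.
Spn, chr7:127137824-127137943, minus strand: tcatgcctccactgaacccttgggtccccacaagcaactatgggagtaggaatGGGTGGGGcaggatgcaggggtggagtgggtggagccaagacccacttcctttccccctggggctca
Nrarp, chr2:25180638-25180757, plus strand: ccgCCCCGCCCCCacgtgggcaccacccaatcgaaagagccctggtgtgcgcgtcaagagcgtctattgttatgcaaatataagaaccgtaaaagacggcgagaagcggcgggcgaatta
Zbtb7a, chr10:81136151-81136270, plus strand: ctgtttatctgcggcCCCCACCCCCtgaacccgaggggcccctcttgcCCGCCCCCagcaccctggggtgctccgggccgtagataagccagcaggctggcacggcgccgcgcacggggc
Gata1, chrX:7967911-7968030, minus strand: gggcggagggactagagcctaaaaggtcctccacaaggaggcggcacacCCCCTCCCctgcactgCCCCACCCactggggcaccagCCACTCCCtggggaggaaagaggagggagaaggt

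Over the 250 bases upstream of the start, Spn held 1 match to the broad motif, Nrarp 2, Zbtb7a 7 and Gata1 3. The narrow motif was matched in Zbtb7a and Gata1, once each, and not in Spn or Nrarp. Of 27025 genes with a RefSeq promoter, 48.5% held the broad motif and 17.9% the narrow one in the same window. A match describes letters and is not a binding site. No share is given for the assigned genes as a set, since only 468 of 666 (70.3%) had a promoter entry and such a check would be void.

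The KLF1 signal at these sites was lower at the median than in the KLF1 list as a whole or in the other classes compared. The fold enrichment used here is the authors' own value per peak, and it describes peaks within the KLF1 list only. At the sites without KLF3 it had a median of 8.82 (quartiles 6.88 and 12.2, range 3.87 to 45.1), against 9.72 over all 3800 KLF1 peaks and 13.4 (quartiles 8.36 and 21.5) at the 211 distal KLF1 peaks that overlapped KLF3. The median was 9.04 at the 1093 intronic KLF1 peaks and 9.63 at the 325 promoter KLF1 peaks that also lacked KLF3. An enrichment of 20 or more was reached by 56 of 788 sites, or 7.11% (95% exact Clopper-Pearson interval 5.41 to 9.13, covering counting error only), against 61 of 211 distal peaks with KLF3, or 28.9% (22.9 to 35.5), and 14.0% of all KLF1 peaks. That share was 8.14% (6.59 to 9.92) at intronic and 11.4% (8.14 to 15.3) at promoter KLF1 peaks without KLF3. Peaks were also narrower than the distal peaks with KLF3, with a median width of 280 bp against 342 bp. The median width was 277 bp at intronic and 293 bp at promoter KLF1 peaks without KLF3. As peak calls chose the sites and there is 1 pooled library per factor, these values are a description without a test.

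**Figure D1:**
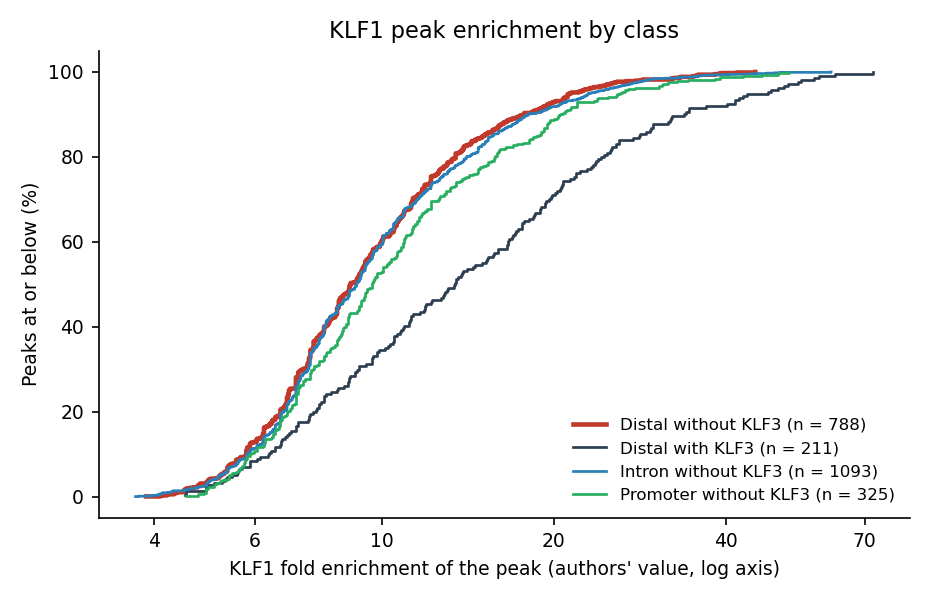
Cumulative share of KLF1 peaks (y axis, percent) at or below a given KLF1 fold enrichment (x axis, log scale, authors' value) for distal sites without KLF3 and 3 other classes of KLF1 peaks. The curve of the distal sites without KLF3 (median 8.82) runs beside that of intronic peaks without KLF3 (9.04), and the curve of distal peaks with KLF3 (13.4) lies to the right.

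The strongest sites lay near genes of varied function. The highest enrichment, 45.1, was 48043 bp downstream of the start of Rbx1, the RING subunit of cullin ubiquitin ligases, at chr15:81344571-81345030. Sites near Mdga1 (41.8), Grap2 (39.3), Lman1l (38.9), Myh7b (38.3) and Optc (35.8) followed in KLF1 enrichment. Mdga1 encodes a cell surface glycoprotein, Grap2 a signalling adaptor of blood cells, Myh7b a myosin heavy chain and Optc an extracellular matrix protein. The other sites of the highest 10 were assigned to Pdp1 (35.6), Commd7 (35.4), Epha5 (35.0) and Dmrta2 (33.4). Pdp1 encodes a phosphatase that activates pyruvate dehydrogenase, Epha5 an ephrin receptor and Dmrta2 a transcription factor. In the authors' deposited table Mdga1, Lman1l, Optc and Epha5 stood below 1 FPKM in both J2E-KLF3-ER and J2E, so a strong site could lie nearest a gene with little RNA in these lines. The Epha5 site was 565694 bp from the start of its gene.

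The sites were far from start sites, which the annotation class fixes in part. The median distance from summit to assigned start was 14522 bp (quartiles 5799.5 and 35222.5, range 374 to 1128029), against 10075 bp for distal KLF1 peaks with KLF3. Of the sites, 559 (70.9%, 95% exact interval 67.6 to 74.1) lay upstream of the assigned gene, against 149 of 211 (70.6%, 64.0 to 76.7) of the distal peaks with KLF3. Only the sites near Mir130a and Gm4532, named after their values were seen, were within 1 kb of a start site. Sites occurred on all autosomes and the X chromosome. Chromosome 2 held the most, with 78, and the X chromosome the fewest, with 7 of its 59 KLF1 peaks.

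Most sites were far from any KLF3 peak as well, which the rule used. The median gap was 50648 bp (range 177 to 6335056). For 25 sites it was at most 1 kb, for 167 at most 10 kb and for 271 above 100 kb. The sites closest to a KLF3 peak without touching it were near Rps19 (177 bp), Tenc1 (186 bp), 0610009L18Rik (306 bp), Phospho2 (323 bp) and Dnajb1 (379 bp), with KLF1 enrichments of 6.51, 16.5, 8.60, 11.8 and 19.1 in the same order. On the other side of the rule, the distal KLF1 peaks with the smallest overlap were near Pim1 (67 bp), Dhrs3 (120 bp), Ptgs1 (154 bp), 3830408C21Rik (155 bp) and Socs7 (159 bp). Their KLF1 enrichments lay between 5.24 and 7.93.

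A minority of the sites stood in groups. When intervals at most 50 kb apart were chained, 548 of the 771 distinct intervals stood alone and 223 (28.9%) fell into 100 groups, of which 84 were pairs, 11 held 3 sites, 3 held 4 and 2 held 5. One group of 5 ran across 23148 bp at chr2:153386702-153409849, near Commd7 and 8430427H17Rik, with KLF1 enrichments of 9.54 to 35.4. The other, at chr17:48080311-48180228, was near Foxp4, a forkhead transcription factor gene, and 1700122O11Rik, with enrichments of 6.55 to 14.9. The groups of 4 were near Arhgap23 and Socs7 on chromosome 11, near Zfp217 on chromosome 2, and upstream of Klf10 at chr15:38242887-38303971. By gene, with each listed summit counted, Gse1, named after its values were seen, had the most sites, with 5. Arhgap23, Foxp4, Zfp217 and Klf10 had 4 each. At Arhgap23 and at Foxp4, 2 of these summits shared an interval.

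Genes of the Krüppel-like and SP family themselves carried several of these sites. Of the 20 family genes listed, 6 (Klf9, Klf10, Klf11, Klf13, Sp1 and Sp3) were assigned 13 sites, and all 13 lay upstream of the gene. Klf9, Klf10, Klf11 and Klf13 encode repressors or repressor-activators that bind the SIN3 corepressor, and Sp1 and Sp3 encode widely expressed factors that bind the same GC-rich elements. The 4 Klf10 sites stood 12575, 18788, 31870 and 73382 bp upstream of its start, with KLF1 enrichments of 11.3, 13.5, 12.5 and 6.87. Klf10 had 1 further KLF1 peak, in an intron, and its 1 assigned KLF3 peak lay farther out, 84096 bp upstream. Klf11 had sites 6941 and 17378 bp upstream (enrichments 4.13 and 11.9), Klf13 had sites 23236 and 35404 bp upstream (8.20 and 25.4), and Klf9 had sites 7037 and 53737 bp upstream (18.4 and 12.6). Nearer the start, all 3 also had a KLF1 peak that overlapped KLF3. It was intronic at Klf11 (enrichment 23.9) and Klf13 (21.4), and distal at Klf9 (23.6). The sites of Sp3 were 40330 and 78498 bp upstream (8.76 and 5.79), and no other peak of either factor was assigned to Sp3. The Sp1 site stood 4463 bp upstream (14.2).

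**Figure D2:**
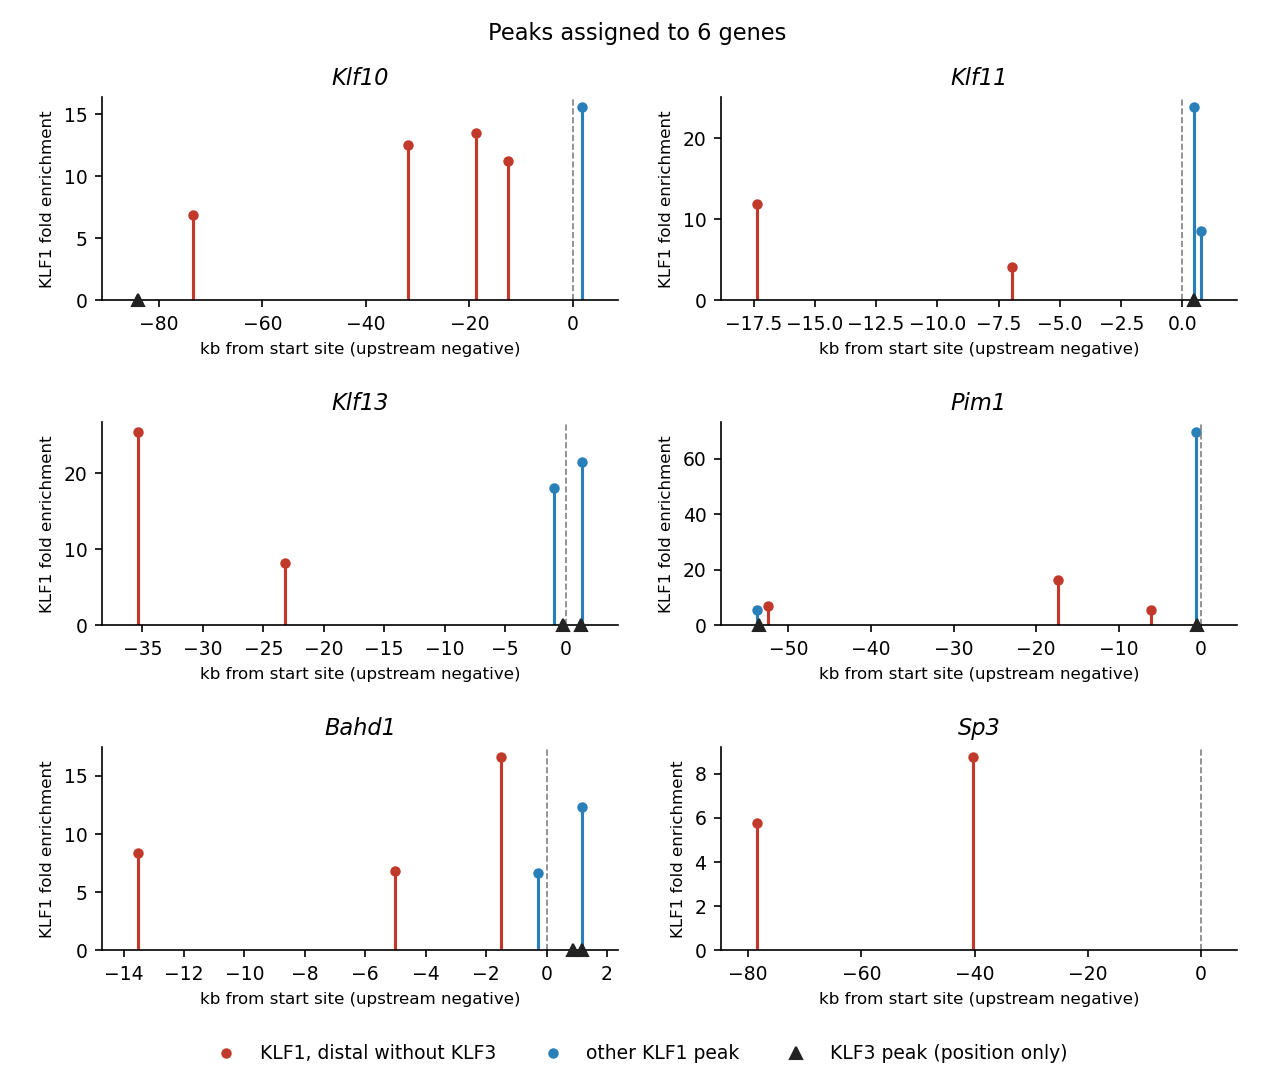
Peaks assigned to 6 genes by distance from the start site (x axis, kb, upstream negative), with the KLF1 fold enrichment on the y axis; red marks distal sites without KLF3, blue other KLF1 peaks, and black triangles the positions of KLF3 peaks at no set height. At Klf10, Klf11, Klf13, Pim1 and Bahd1 red sites lie upstream of a blue KLF1 peak near the start, while Sp3 has red sites alone.

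Sites were assigned to 666 of the 23309 named genes of the RNA table (2.86%), and to some genes of red cell function. Of the 9 globin genes listed, Hbb-y, an embryonic beta-type globin gene, was the one with a site, at chr7:111007618-111007966, 6058 bp upstream, with an enrichment of 20.7. A neighbouring KLF1 peak of nearly the same height, 19.9, at 7957 bp upstream overlapped KLF3. Of 25 heme and iron genes, 13 had a KLF1 peak of any class and 2 had a site. They were Abcb10, a mitochondrial transporter gene of heme synthesis (5731 bp upstream, enrichment 16.2), and Cpox, a heme synthesis enzyme gene (8188 bp upstream, 12.8), which had no other peak of either factor. The red cell membrane list of 27 genes had 15 with a KLF1 peak and 1 with a site, Tmcc2 (9459 bp upstream, 6.24). All these counts go by the nearest gene. Sites assigned to Synb lay 19881 and 23009 bp from the start of Slc25a37, a gene of the heme and iron list. A site assigned to Nprl3 lay 7412 bp from the start of Hba-x, a listed globin gene. Synb, Slc25a37, Nprl3 and Hba-x were named after their values were seen.

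Erythroid regulators had sites beside other peaks. Of 35 erythroid transcription factor and cofactor genes, 4 had a site each. The sites were 3565 bp upstream of Gata1 (enrichment 13.9), 1906 bp upstream of Zbtb7a (10.5), 20785 bp upstream of Cbfa2t3 (7.30) and 4647 bp upstream of Zfpm1 (4.97). Gata1 is the master erythroid regulator, Zfpm1 encodes its cofactor FOG1, Cbfa2t3 a corepressor and Zbtb7a a repressor of embryonic and fetal globin genes. At Gata1 the promoter peak shared with KLF3 reached an enrichment of 50.5, well above the 13.9 of the distal site. Of 20 erythropoietin and Kit signalling genes, Pim1, a kinase gene, had 3 sites at 6057, 17389 and 52466 bp upstream (5.66, 16.2 and 7.14), beside a promoter peak shared with KLF3 of 69.7. Socs3, a signalling inhibitor gene of the same list, had a site 35091 bp downstream (9.11).

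The other lists held between 0 and 6 such genes. Of 37 KLF1 target genes known from the literature, 6 had a site, among them Zbtb7a, Gata1, Abcb10 and Pim1, whereas 25 had a KLF1 peak of any class. None of 24 cell cycle genes was the nearest gene of a site, although 12 had a KLF1 peak of some class. A site assigned to Taf8 (enrichment 9.79) lay 20660 bp from the start of the listed gene Ccnd3, named after its values were seen. The survival gene Mcl1 (7265 bp downstream, enrichment 10.1) was the one of 14 apoptosis genes, Cebpe, a granulocyte factor gene, the one of 11 myeloid markers and Gp9, a platelet glycoprotein gene, the one of 8 megakaryocyte markers. The last pair had low enrichments of 4.76 and 5.37.

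The KLF1 peak table also marks whether the nearest gene belongs to an up or a down list of the authors' comparison of K1 and K1-ER RNA, a measure that the choice of sites did not use. The header does not define the direction of that comparison. Of the 37 literature targets, 15 were among the 557 up list names that the authors' deposited table shows and 0 among its 132 down list names. The names shown are only the list genes nearest to some KLF1 peak, and 25 of the 37 targets had such a peak. This count does not set the direction. Of the 788 sites, 122 (15.5%, 95% exact interval 13.0 to 18.2) had a nearest gene on the up list and 6 (0.761%, 0.280 to 1.65) one on the down list, in the authors' deposited table. By gene, 97 of 666 assigned genes (14.6%) were on the up list, against 14.0% of the genes assigned to any KLF1 peak in the authors' deposited table. The down list held 6 of 666 (0.901%), against 0.577% of the genes of any KLF1 peak in the authors' deposited table. Both shares by gene were near those of KLF1-bound genes at large. By site the up list share was lower than over all 3800 KLF1 peaks. There 721 (19.0%, 17.7 to 20.3) had a nearest gene on the up list in the authors' deposited table.

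The share varied between classes of KLF1 peaks. The nearest gene was on the up list for 15.5% of the distal sites without KLF3, for 63 of 211 distal peaks with KLF3 (29.9%, 95% exact interval 23.8 to 36.5) and for 16.3% of intronic peaks without KLF3 (14.1 to 18.6), in the authors' deposited table. It was on the up list for 29.5% of promoter peaks without KLF3 (24.6 to 34.8) and for 17.7% of promoter peaks with KLF3 (15.2 to 20.4), in the authors' deposited table. For intronic peaks with KLF3 the share was 24.0% (19.5 to 29.0) in the authors' deposited table. The intervals cover counting error only and regions are not replicates, so the difference between the 2 distal classes was not tested.

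Among the distal sites without KLF3, the share was higher where a KLF3 peak was nearby. The nearest gene was on the up list for 8 of 25 sites with a gap below 1 kb (32.0%, 95% exact interval 14.9 to 53.5) and for 40 of 142 sites at 1 to 10 kb (28.2%, 20.9 to 36.3) in the authors' deposited table. It was on that list for 16.9% of the 225 sites at 10 to 50 kb, for 15.2% of the 125 at 50 to 100 kb and for 17 of 271 sites at 100 kb or more (6.27%, 3.70 to 9.85) in the authors' deposited table. The height of the KLF1 peak gave no such ordering. In 4 groups of about equal size, ordered from low to high KLF1 enrichment, the shares were 14.9%, 13.1%, 15.6% and 18.2% in the authors' deposited table. By distance to the start they were 22.1% at 1 to 5 kb, 19.6% at 5 to 10 kb, 11.5% at 10 to 50 kb, 18.5% at 50 to 100 kb and 4.17% beyond, in the authors' deposited table. Gap and start distance were not separated here and gene density was not measured, so their separate parts were not tested.

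**Figure D3:**
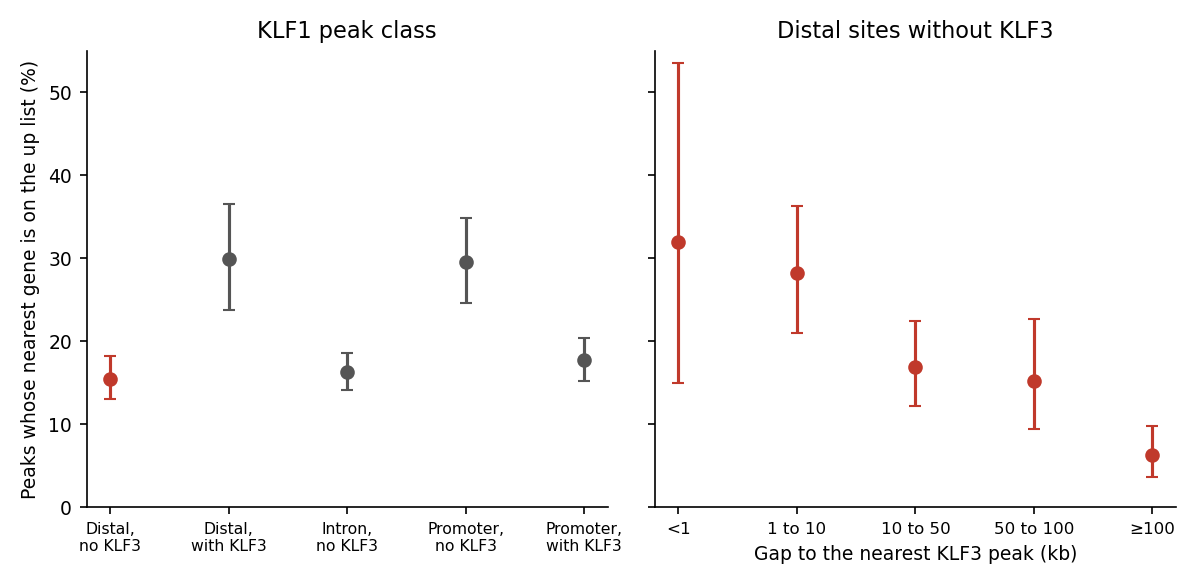
Share of KLF1 peaks whose nearest gene is on the authors' up list (y axis, percent, points with 95% exact intervals) by peak class on the left and, for the distal sites without KLF3, by gap to the nearest KLF3 peak on the right. The left panel places distal sites without KLF3 at 15.5% and distal peaks with KLF3 at 29.9%, and in the right panel the share is 32.0% below 1 kb and 6.27% at 100 kb or more.

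The share also varied with the other peaks assigned to the same gene. Of 116 assigned genes that also had a KLF1 promoter peak, 45 (38.8%) were on the up list, against 52 of 550 (9.45%) without one, in the authors' deposited table. Of 254 genes with any KLF3 peak, 63 (24.8%) were on it, against 34 of 412 (8.25%) with none, in the authors' deposited table. The 442 genes whose distal sites were their sole KLF1 peaks had 29 (6.56%) on the up list in the authors' deposited table. By number of sites, 5 of 15 genes with 3 or more, 14 of 86 (16.3%) with 2 and 78 of 565 (13.8%) with 1 were on the list, in the authors' deposited table.

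The nearest gene was not always the nearest up gene. An up list gene had its start within 50 kb of 158 sites (20.1%), and at 53 of them another gene was closer, in the authors' deposited table. A site near Fam19a3 with an enrichment of 32.4 lay 18447 bp from the start of Ppm1j, a phosphatase gene, and one near Arhgap23 (24.7) lay 44231 bp from Socs7, both up list genes in the authors' deposited table. These were the highest sites of that kind, named after their values were seen.

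The RNA comparison asked how newly made transcripts of the assigned genes differed between J2E-KLF3-ER and J2E. The authors' deposited table holds 1 pooled value per group and no per-library value, so no spread can be given, the depth is unknown, and clones, tamoxifen and fusion cannot be told apart. Of the 666 assigned genes, 360 were tested; at the authors' q below 0.05, 19 (5.28%) fell and 3 (0.833%) rose in the authors' deposited table. Of all 9619 genes tested, 1.9% fell and 0.821% rose in the authors' deposited table, so the rising share was at the background. Of the 1838 tested genes assigned to any KLF1 peak, 75 (4.08%) fell in the authors' deposited table. Of the 123 tested genes of distal KLF1 peaks with KLF3, 12 (9.76%) fell and 3 rose in the authors' deposited table. Without the genes that also had a site, 9 of 91 (9.89%) fell and 2 rose in the authors' deposited table. The falling share of the assigned genes was thus below that of the other distal class. That difference was not tested. The median log2 fold change of the assigned genes was -0.024, against 0.027 over all tested genes, in the authors' deposited table, and it was 0.041 over the assigned genes with no KLF3 peak.

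Several transcription factor genes were among those that fell. Klf10, a repressor gene induced by TGF-beta, was at 12.5 FPKM in J2E-KLF3-ER and 47.2 FPKM in J2E, or -1.92 as a log2 fold change (authors' q = 0.00408) in the authors' deposited table. Its close relative Klf11 was at 1.13 FPKM in J2E-KLF3-ER and 3.26 FPKM in J2E (log2 fold change -1.53, authors' q = 0.00707) in the authors' deposited table. Sp3 was at 37.7 FPKM in J2E-KLF3-ER and 61.7 FPKM in J2E (-0.71) in the authors' deposited table. Klf9, Klf13 and Sp1, the other family genes with sites, had log2 fold changes of -0.21, -0.33 and -0.029 and were not called in the authors' deposited table. The family counted 3 falling genes of 6 tested with a site, where 5 of the 15 tested family genes fell in all, in the authors' deposited table.

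Zbtb7a was at 26.7 FPKM in J2E-KLF3-ER and 51.3 FPKM in J2E (-0.94) in the authors' deposited table. Junb, an AP-1 subunit gene, was at 33.7 FPKM in J2E-KLF3-ER and 65.0 FPKM in J2E (-0.95) in the authors' deposited table. Both fell, and both also had KLF1 and KLF3 promoter peaks, as did the falling genes Btg2, Kcnn4, Eif4ebp1, Impdh1, Sertad2 and Keap1. The falling genes Bahd1 and Tprgl had a KLF1 promoter peak without a KLF3 one. Runx3, a RUNX family gene, was at 7.84 FPKM in J2E-KLF3-ER and 13.7 FPKM in J2E (-0.81) in the authors' deposited table, and its single peak of either factor was the site 94617 bp upstream. Btg2, an antiproliferative gene, was at 8.20 FPKM in J2E-KLF3-ER and 18.3 FPKM in J2E (-1.16) in the authors' deposited table. The heterochromatin gene Bahd1 was at 16.2 FPKM in J2E-KLF3-ER and 25.7 FPKM in J2E (-0.66) in the authors' deposited table, with 3 sites between 1512 and 13538 bp upstream.

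The other falling genes included ones of membrane, metabolism and translation. Kcnn4, the gene of the calcium-activated potassium channel of red cells, was at 19.5 FPKM in J2E-KLF3-ER and 53.6 FPKM in J2E (-1.46) in the authors' deposited table. Eif4ebp1, a translation inhibitor gene, was at 22.9 FPKM in J2E-KLF3-ER and 53.8 FPKM in J2E (-1.23) in the authors' deposited table. Impdh1, of guanine nucleotide synthesis, changed by -0.76, Keap1, the sensor gene of oxidative stress, by -0.65 and Ugcg, of glycosphingolipid synthesis, by -0.53, on the log2 scale of the authors' deposited table. Tprgl (-1.17), the deubiquitinase gene Otud1 (-1.01) and Sertad2 (-0.70) also fell, with log2 fold changes from the authors' deposited table.

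The 3 genes that rose encode a surface protein and proteins of lipid metabolism. Podxl, a sialomucin gene, was at 3.60 FPKM in J2E-KLF3-ER and 1.09 FPKM in J2E (log2 fold change 1.72) in the authors' deposited table. Scd1, a fatty acid desaturase gene, was at 13.2 FPKM in J2E-KLF3-ER and 7.88 FPKM in J2E (0.74) in the authors' deposited table. Insig1, a regulator gene of sterol synthesis, was at 104 FPKM in J2E-KLF3-ER and 70.9 FPKM in J2E (0.55) in the authors' deposited table. Podxl and Scd1 were on the up list and Insig1 was not.

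**Figure D4:**
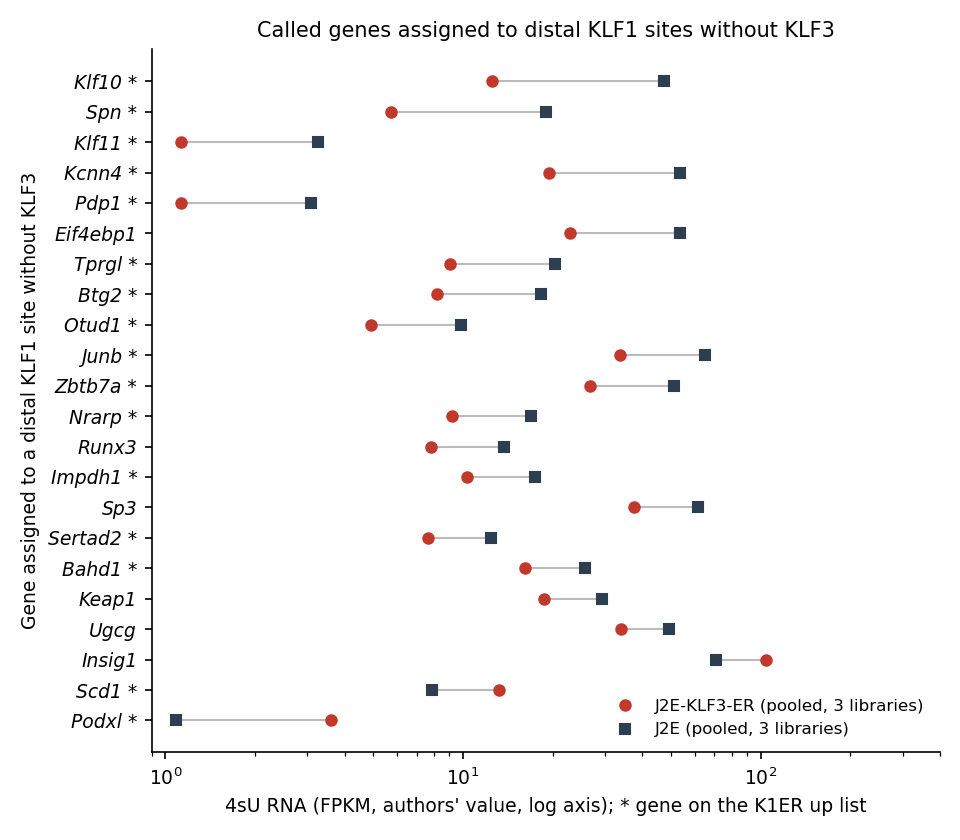
4sU RNA (x axis, FPKM, log scale) in J2E-KLF3-ER (red circles) and J2E (dark squares) for the 22 called genes assigned to distal KLF1 sites without KLF3, in order of log2 fold change; each point is the authors' pooled value of 3 libraries and an asterisk marks genes on the up list. The red circle lies left of the square for 19 genes, Klf10 having the widest gap (12.5 and 47.2 FPKM), and right of it for Insig1, Scd1 and Podxl.

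The falling calls lay mostly among assigned genes of the up list. Of 71 tested assigned genes on it, 14 (19.7%) fell and 2 rose, with a median log2 fold change of -0.26 by the authors' deposited table. Of 289 tested assigned genes not on it, 5 fell and 1 rose, with a median of 0.031, in the authors' deposited table. Of the 329 tested names of the up list that were not assigned to any of the sites, 38 (11.6%) fell and 4 rose, with a median of -0.18, in the authors' deposited table. The difference between these parts of the list was not tested. Within the up list, 4 of 19 tested assigned genes without any KLF3 peak fell (median -0.39), and 10 of 52 with a KLF3 peak fell (median -0.21), in the authors' deposited table. Of 80 tested assigned genes that also had a KLF1 promoter peak, 10 (12.5%) fell in the authors' deposited table. Without such a peak, 9 of 280 (3.21%) fell in the authors' deposited table. Where the distal sites were the sole KLF1 peaks, 7 of 218 (3.21%) fell in the authors' deposited table.

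**Figure D5:**
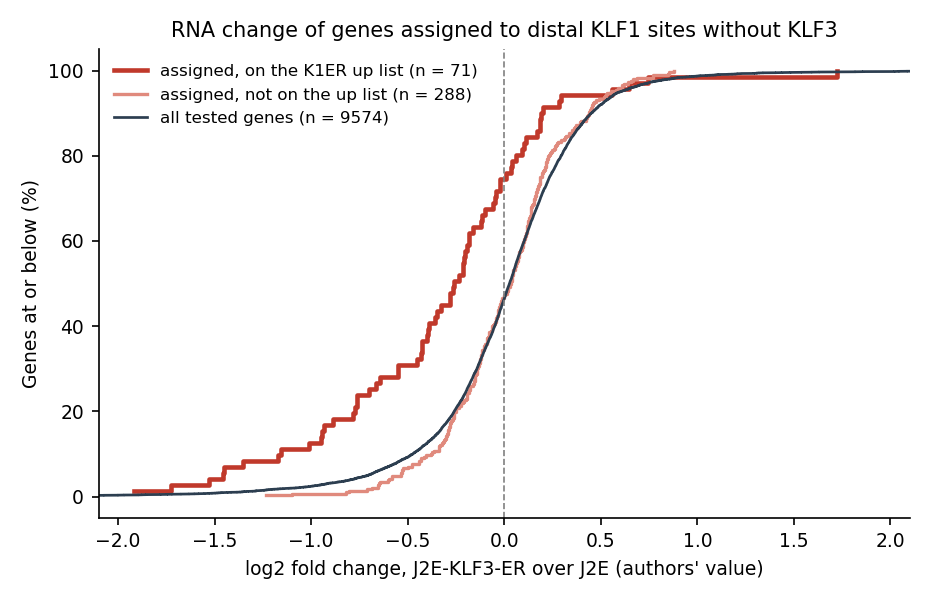
Cumulative share of tested genes (y axis, percent) at or below a log2 fold change of J2E-KLF3-ER over J2E (x axis, authors' value) for assigned genes on the up list, assigned genes not on it, and all tested genes with a finite value. The curve of the up list genes (median -0.26) lies left of the others, and the genes not on the list (0.031) run beside all tested genes (0.027).

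For 19 up list genes the distal sites were the only listed peaks of either factor. Of the 14 tested, Spn, Pdp1 and Nrarp fell and none rose, with a median log2 fold change of -0.41 among the 14, by the authors' deposited table. Spn, the gene of the leukocyte sialoglycoprotein CD43, was at 5.74 FPKM in J2E-KLF3-ER and 19.0 FPKM in J2E (-1.72) in the authors' deposited table, with its site at chr7:134284547-134284865, 3397 bp upstream. Pdp1 was at 1.13 FPKM in J2E-KLF3-ER and 3.09 FPKM in J2E (-1.45) in the authors' deposited table, and its site at chr4:11827100-11827459 was among the 10 strongest. Nrarp, a Notch feedback inhibitor gene, was at 9.16 FPKM in J2E-KLF3-ER and 16.9 FPKM in J2E (-0.88) in the authors' deposited table, with its site 32647 bp upstream. The nearest KLF3 peaks to these 3 sites were 49567, 66062 and 36436 bp away.

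The remaining tested genes of this group were not called. Hemgn, an erythroid nuclear protein gene, was at 37.3 FPKM in J2E-KLF3-ER and 50.2 FPKM in J2E (-0.43, authors' q = 0.161) in the authors' deposited table. Cd24a, of a surface glycoprotein of immature red cells, was at 43.9 FPKM in J2E-KLF3-ER and 57.6 FPKM in J2E (-0.39, authors' q = 0.262) in the authors' deposited table. Rnf139, Fabp5 and Tnfrsf14 had log2 fold changes of -0.42, -0.77 and -0.76 and Commd5 one of 0.65, none of them called, in the authors' deposited table. These 6 genes were named after their values were seen.

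Most assigned genes with a defined erythroid role were not called either. Gata1 was at 25.2 FPKM in J2E-KLF3-ER and 30.6 FPKM in J2E (-0.28), and Zfpm1 was at 45.3 FPKM in J2E-KLF3-ER and 51.1 FPKM in J2E (-0.18), in the authors' deposited table. Abcb10 (-0.23), Cpox (0.091), Cbfa2t3 (0.11) and Mcl1 (-0.12) had small differences on the log2 scale of the authors' deposited table. Pim1 was at 3.29 FPKM in J2E-KLF3-ER and 6.28 FPKM in J2E (-0.93, authors' q = 0.150) in the authors' deposited table, a large difference that did not pass. Hbb-y, Tmcc2, Socs3, Cebpe and Gp9 were not tested by the authors, and all were below 3 FPKM in both groups in their deposited table. Genes with groups of sites, Gse1 (-0.15), Foxp4 (-0.13), Zfp217 (0.11) and Arhgap23 (0.10), were not called, on the log2 scale of the authors' deposited table.

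Assigned genes were transcribed more often than genes in general. In J2E, 428 of 666 (64.3%) stood at 1 FPKM or more, against 49.2% of all 23309 named rows, in the authors' deposited table. Among genes of any KLF1 peak the share was 76.1% in the authors' deposited table, which is above that of the genes assigned to the distal sites without KLF3. Assigned genes with a KLF3 peak of their own stood at 1 FPKM or more in 87.0% of 254 cases, against 50.2% of 412 without one, in the authors' deposited table.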

How the data were processed

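ChIP-seq of KLF1 and KLF3 and 4sU RNA-seq were analysed from the authors' processed files. The build mm9 and the tools MACS 1.4.2, MACS2 and TopHat2 2.0.10 are named per the submitters' processing notes. Which tool made which file is not given in the sources used here. The authors' deposited peak lists give a fold enrichment ratio per peak, from 1 pooled library per factor. Per the file headers, the RNA table holds pooled FPKM per group, a log2 fold change (J2E-KLF3-ER over J2E), a test statistic (a score), a p-value and a q-value. Nothing in the labels says that the J2E libraries were separate cultures. The deposited p-values then reflect just the variation among these libraries, which may be technical.

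The test planned for per-library values could not be run, so the authors' q below 0.05 was used. Per-sample columns left unused number 0. An overlap needed at least 1 bp. Genes were those assigned by the authors at any distance. The deposited distance is start site minus summit (755 of 788 sites matched within 2 bp), and sides were set by gene strand. In the KLF1 list, 13 names turned into dates were read back. The 93 blank RNA rows were dropped, and medians use finite fold changes (359 of 360 assigned and 9574 of 9619 tested genes). Exact intervals, where given beside a percent share computed here from the deposited lists, cover counting error only. The members and gene lists were chosen with earlier results of these data known. Named sites were the 10 highest, the 5 nearest to KLF3, the 5 largest groups, up to 4 per list and those of called genes; other names were chosen after their values were seen. Analyses used Python 3.11.15, pandas 2.3.3, NumPy 2.4.6, SciPy 1.17.1 and matplotlib 3.10.9. The overlap step was tested on simulated data.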

Additional observations from a re-analysis of the deposited data

How the results depend on the processing

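Of 37 alternatives computed, 27 left the result within its spread or within 1.5 times, and 10 moved it further. With only KLF1 peaks at or above the median enrichment of their list, the sites numbered 328, the sites nearest an up list gene 54 and the assigned genes that fell 11 of 149. With only KLF3 peaks at or above their median, the gap to KLF3 was 122402.5 bp. At a q below 0.01, 12 assigned genes fell and 1 rose. Among assigned genes with no KLF3 peak, 6 of 171 tested fell, and 4 of 19 on the up list fell. The median log2 fold change of the assigned genes with no KLF3 peak was 0.041, above 0, where that of all assigned genes was -0.024, below 0. The subsets of peaks and genes hold fewer members by construction. At 5 FPKM, 47.4% of the assigned genes counted as transcribed in J2E. Alternatives for the up list were chosen after seeing the data. The share of motifs at the sites was not run, as no mm9 genome was at hand. No paired analysis was possible because the RNA values are pooled per group, and for the same reason no replicate could be left out. The depth of the libraries is unknown, and the lists give no counts per peak.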
